A study of Mus musculus with 2 samples.

Results

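Genes of GABA synthesis, transport and reception were compared between a control sample of mouse brain RNA and a sample from cuprizone treatment. Cuprizone is a compound that binds copper and is toxic to oligodendrocytes, for which it serves as a model of demyelination. The 26 genes were chosen by their symbol in the array annotation, out of 30920 genes with a symbol, and they fall into GABA-A receptor subunits, GABA-B receptor subunits, synthesis and vesicle loading, uptake and breakdown, anchoring, and chloride transporters. Some other genes of the family are not analysed here. Per the labels both samples came from male C57BL/6 mice, and cerebellum is given as the tissue of both. For the cuprizone sample the labels give a diet holding 0.2% cuprizone for 6 weeks. They repeat that sentence for the control, and the grouping was taken from the treatment entry instead. The title of the cuprizone sample bears the unexplained tag CPZ-5, and neither ages nor pooling of animals are mentioned. With 1 array in each group, no replicate error could be computed and no test was made, so every comparison is a description of these 2 arrays.

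GABA is the main inhibitory transmitter of the brain. Glutamate decarboxylases make it, a vesicular transporter loads it, and after release it opens the chloride channels of GABA-A receptors, which are pentamers assembled from subunits that differ between brain regions, or acts on GABA-B receptors, which are coupled to G proteins. Transporters of neurons and glia then remove it, and the chloride gradient that neurons keep with cation-chloride cotransporters sets whether the opened channel inhibits the cell.

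The values are log2 RMA levels of probe sets of a whole-transcript array, and a difference is the cuprizone array minus the control array on that scale. Each of the 26 genes had 1 probe set, made of 15 to 38 probes and marked by the annotation as free of cross-hybridisation. Probe sets differ in brightness, so no gene's level is set against another's. A level was read against a background bound, the upper limit of the central 95% among 1459 odorant and pheromone receptor genes, of which brain makes little RNA; it was 4.68 for the control and 4.71 for cuprizone. Genes count as measured where at least 1 array reached 4.34, the median of all values of both arrays, and 16559 did. Over these the median difference was -0.01 and the central 95% ran from -0.49 to 0.50.

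Of the 26 GABA genes, 21 lay over the background bound on both arrays and 5 lay within it on both, against 40.9% of all 30920 genes over the bound on both arrays and 54.6% on neither. The 5 were all GABA-A receptor subunits, and the same 21 genes were the ones counted as measured, so no GABA gene was counted through 1 array alone. Of the 14 receptor subunit genes 9 lay over the bound, as did both GABA-B receptor genes, all 3 genes of synthesis and vesicle loading, all 4 of uptake and breakdown, the anchoring gene and both chloride transporters. Gabrg1, Gabrd and Slc6a12 were the ones nearest to the bound: with a stricter bound from the same genes (the upper end of their central 99%), 5.37 and 5.46, in its place they no longer passed it on both arrays, and 18 genes did.

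**Figure D1:**
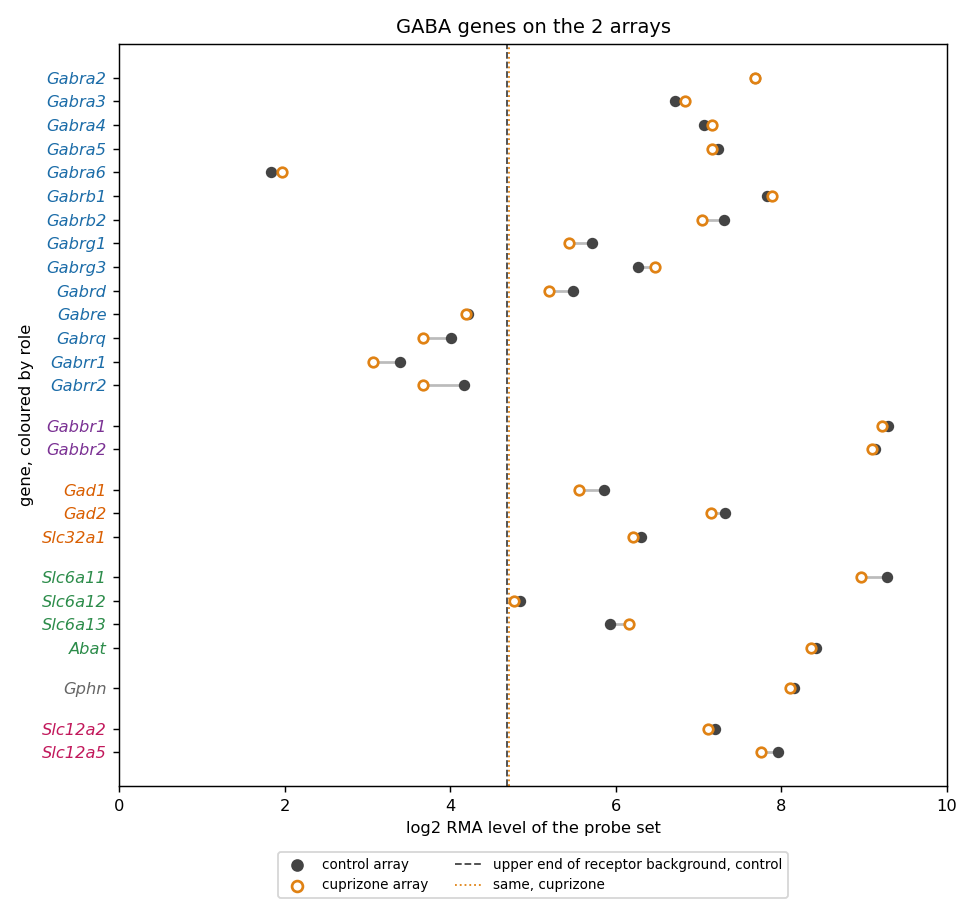
Log2 RMA level of each of the 26 GABA genes on the control array (filled points) and the cuprizone array (open points), with gene names coloured by role and the upper end of the receptor background drawn for each array (4.68 and 4.71). Gabra6, Gabre, Gabrq, Gabrr1 and Gabrr2 lie left of both lines, the other 21 genes lie right of them, and the points of each gene sit close together.

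GABA-A receptor alpha subunits set where in the brain and where on the neuron a receptor sits. Gabra6, the alpha subunit known for its restriction to cerebellar granule cells, was at 1.84 in the control and 1.97 in the cuprizone sample, above only 35.5% and 37.4% of the receptor genes that define the background. In contrast, Gabra2, a subunit of forebrain synapses and axon initial segments, was at 7.67 and 7.68, and Gabra5, known for extrasynaptic receptors of the hippocampus, was at 7.23 and 7.16. Both values of Gabra2 and of Gabra5 exceeded those of every background gene. Gabra3, common in monoaminergic neurons and the reticular thalamus, was at 6.72 and 6.83, and Gabra4, known from striatum, thalamus and dentate gyrus, at 7.06 and 7.17.

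The annotation places Gabra6 on chromosome 11 from 42306437 to 42321072 and Gabrb2 98.7 kb beyond it, from 42419757 to 42632591; the sources used here do not name the genome build of these coordinates. Gabrb2, a beta subunit that forms part of the GABA binding site, was at 7.30 and 7.04, well over the bound, so the neighbours of this cluster lay on opposite sides of it on both arrays. The sequences around the annotated starts of Gabra6 and Gabra2 are shown to place a granule cell subunit beside a forebrain one. They run from 250 bases before to 50 bases after the start in RefSeq's GRCm38.p6 annotation, both on the minus strand, at chr11:42321023-42321322 and chr5:71095800-71096099, with every CG dinucleotide in capitals.
Gabra6: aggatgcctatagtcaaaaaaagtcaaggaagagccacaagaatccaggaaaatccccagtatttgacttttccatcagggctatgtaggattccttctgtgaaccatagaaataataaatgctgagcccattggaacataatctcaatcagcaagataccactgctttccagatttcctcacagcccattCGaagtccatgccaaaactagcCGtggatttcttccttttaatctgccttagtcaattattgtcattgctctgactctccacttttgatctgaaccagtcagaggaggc
Gabra2: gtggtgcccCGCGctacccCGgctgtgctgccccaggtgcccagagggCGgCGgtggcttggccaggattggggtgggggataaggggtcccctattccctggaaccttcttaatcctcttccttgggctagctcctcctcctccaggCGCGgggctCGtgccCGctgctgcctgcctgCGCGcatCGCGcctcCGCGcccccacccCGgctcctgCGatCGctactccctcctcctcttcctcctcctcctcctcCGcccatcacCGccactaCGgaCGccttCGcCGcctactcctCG
The Gabra6 sequence held 2 CG dinucleotides and the Gabra2 sequence 25. Of 32851 sequences of this kind, 94.6% held at least 1, with a median of 7 and quartiles of 3 and 20. Subunits within the background had high and low numbers: Gabre and Gabrq had 24 and 23, Gabrr1 9 and Gabrr2 2. Of those over it, Gabra3 had 0 at both of its annotated starts and Gabrg1 had 3. Gabra4 had 12, and Gabra5 and Gabrg3 had 13 each. Gabrb1 and Gabrb2, with more than 1 start each, had from 9 to 25. Gabrd was not among the sequences. The count is a description of the letters in this window.

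The labelled tissue was checked further against lists of region markers. Of 14 cerebellum genes other than Gabra6, 4 lay over the background bound on both arrays and 7 on neither, against 40.9% and 54.6% of all genes, with Pcp2 of Purkinje cells among the latter at 3.18 and 3.69. The 4 were Zic1, Zic2, Neurod1 and Slc1a6. Of 15 forebrain genes 14 lay over it on both arrays and 0 on neither, among them Ppp1r1b, a phosphatase inhibitor of striatal projection neurons, at 7.06 and 6.82, and Adora2a, the adenosine receptor of striatal neurons, at 6.26 and 6.18. The cerebellum counts lie not far from the shares of all genes, so by themselves they do not show that the list is absent. The label and the forebrain count, with the levels of Gabra6 and Pcp2, therefore point to different regions, and the samples are called the arrays labelled cerebellum.

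**Figure D2:**
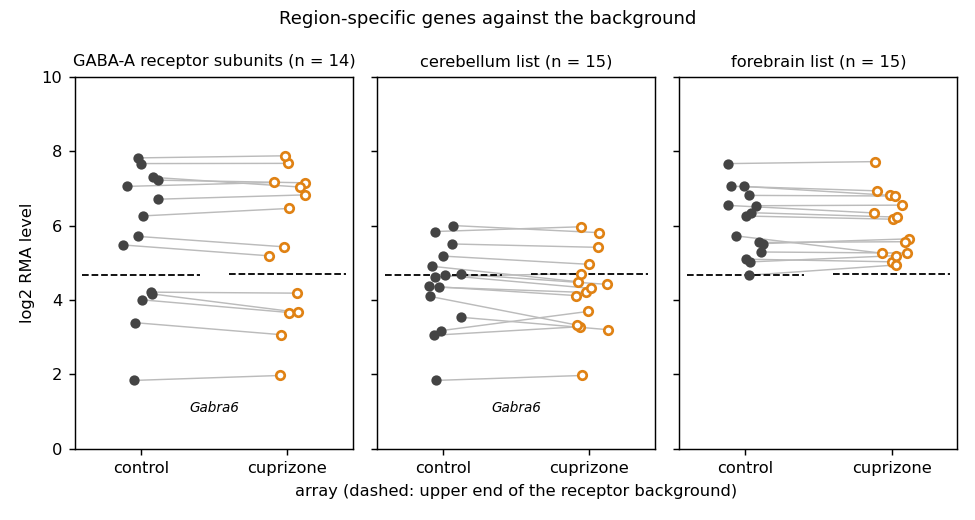
Log2 RMA level of the 14 GABA-A receptor subunits, 15 cerebellum genes and 15 forebrain genes on each array, with lines joining the values of a gene and dashed lines at the upper end of the receptor background (4.68 and 4.71). Gabra6, at 1.84 and 1.97, is the lowest point of the cerebellum list on both arrays, and 14 of the 15 forebrain genes lie over the dashed line on both.

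The remaining subunits within background are ones known mainly from other places than cortex or cerebellum. Gabre and Gabrq, subunits known from hypothalamus and brainstem nuclei and from the X chromosome cluster that also holds Gabra3, were at 4.21 and 4.19 and at 4.01 and 3.67. Gabrr1 and Gabrr2, the rho subunits of retinal receptors, were at 3.39 and 3.07 and at 4.17 and 3.67. For these 4 genes and Gabra6 no fold is given, because both arrays were within background.

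On the deposited scale no GABA gene differed by 1.5-fold between the arrays. Of the 21 measured ones 0 were at least 1.5-fold lower, where 1.35% of all measured genes were, and 0 were that much higher, where 1.60% were. With scaling on poly-A spike-in controls, foreign transcripts added to each RNA sample, 6 GABA genes were at least 1.5-fold lower, namely Slc6a11, Gad1, Gabrd, Gabrg1, Gabrb2 and Slc12a5, where 17.8% of measured genes were. At a threshold of 1.2-fold, chosen after seeing the data, 4 were lower, namely Slc6a11, Gad1, Gabrd and Gabrg1, against a background of 12.3%, and 0 were higher, against 11.3%. Brighter probe sets vary less, and 19 of the 21 GABA genes belong to the 8389 genes at or over 5.55, the 75th percentile of all values, of which 10.8% were lower and 6.81% higher by that threshold. The largest GABA difference, that of Slc6a11, was 1.245-fold, and no GABA gene lay outside the central 95% of measured genes or of its own level class.

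Small differences were more often negative than positive. On the deposited scale 15 of the 21 measured GABA genes were lower on the cuprizone array and 6 higher, against 51.6% and 45.3% of measured genes, and the median difference was -0.07 against -0.01. Among the 19 GABA genes at or over the 75th percentile of all values, 13 were lower, against 56.6% of all genes in that class. The medians there were -0.07 and -0.03, so part of the excess of negative signs was shared by bright genes. These signs depend on the scaling. Spike-in controls were brighter on the cuprizone array by a median of 0.26 over 18 hybridization and 0.38 over 39 poly-A probe sets. Single probe sets ranged widely, from -0.59 to 1.01 and from -0.23 to 1.30, so some spike-ins were dimmer there. Scaling on these medians moves the median of measured genes to -0.27 and -0.39. The share of measured genes that were lower becomes 88.6% and 94.4%, and all 21 GABA genes lie below 0. The GABA median lay 0.06 below that of all measured genes on the deposited scale and on both spike-in scales, and between 0.04 and 0.08 below it under the other scalings, tables and filters tried. All signs below are those of the deposited scale.

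**Figure D3:**
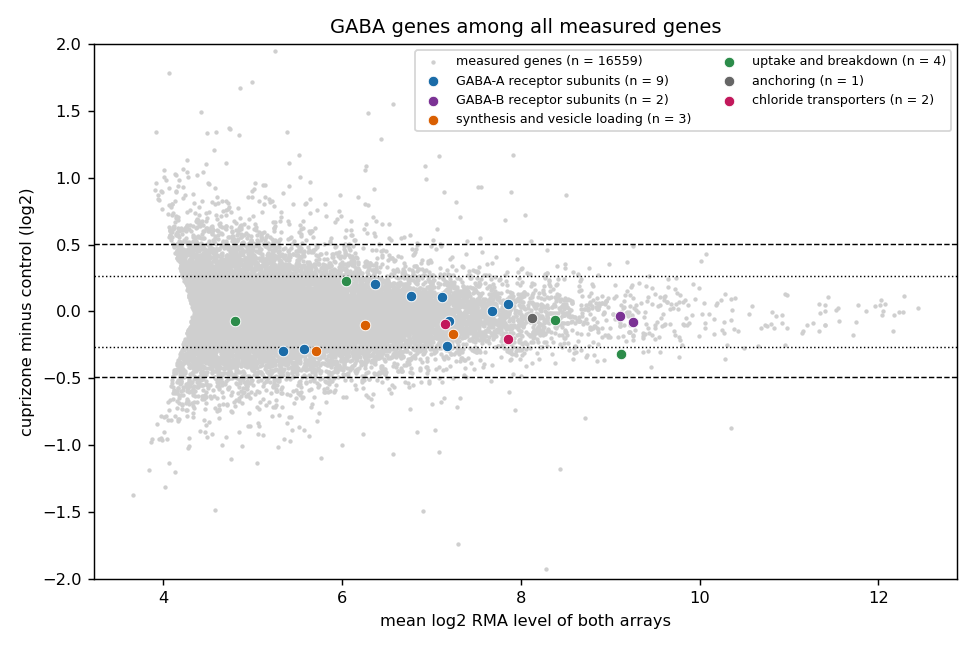
Difference of the cuprizone minus the control array (log2) against the mean level of both arrays for 16559 measured genes (grey) and 21 measured GABA genes (coloured by role); dashed lines mark the central 95% of measured genes (-0.49 and 0.50) and dotted lines 1.2-fold, and 2 genes beyond 2 in either direction are not drawn. All GABA genes lie between the dashed lines and 4 lie below the lower dotted line on the deposited scale, and all would lie below 0 on either spike-in scale.

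The 9 GABA-A receptor subunits over background split by sign, with a median of 0.01. Of the 9, 4 were lower and 5 higher, against 51.6% and 45.3% of measured genes. The largest negative values were those of Gabrd, Gabrg1 and Gabrb2. Gabrd, the delta subunit of extrasynaptic receptors that carry tonic inhibition, was at 5.48 in the control and 5.19 in the cuprizone sample, a difference of -0.29. Gabrg1, a gamma subunit of limbic regions that glia also express, was at 5.72 and 5.43, a difference of -0.28. Gabrb2 differed by -0.26. A larger absolute difference was found for 19.4%, 21.0% and 24.4% of measured genes, so none of the 3 stood apart on these arrays.

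On the positive side, Gabrg3, another gamma subunit, was at 6.27 and 6.47, a difference of 0.20. Gabra3 differed by 0.12 and Gabra4, an alpha partner of the delta subunit, by 0.10. Gabrb1, at 7.83 and 7.88, differed by 0.06, Gabra2 by 0.01 and Gabra5 by -0.07. Each of these 6 subunits was exceeded in absolute difference by at least 34.9% of measured genes. The sign of Gabra2 turned with the scaling on array medians too, to -0.02.

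Receptor genes that lie together on a chromosome did not all have the same sign. The cluster on chromosome 5 holds, in order, Gabrg1, Gabra2, Gabra4 and Gabrb1, with gaps of 118.4, 473.9 and 41.6 kb by the array annotation. Their differences were -0.28, 0.01, 0.10 and 0.06, so Gabrg1 at one end was lower and the other 3 were higher. On chromosome 7, Gabrg3 and Gabra5 lie 20.5 kb apart and differed by 0.20 and -0.07.

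GABA-B receptors work as heterodimers, in which Gabbr1 binds GABA and Gabbr2 couples to the G protein. Gabbr1 was at 9.29 and 9.21, a difference of -0.08, and Gabbr2 at 9.13 and 9.09, a difference of -0.04. Both differences were small, with larger absolute differences for 71.1% and 84.9% of measured genes, and 0.04 lay between them. Gphn, which encodes the scaffold gephyrin that holds GABA-A and glycine receptors at synapses, was at 8.15 and 8.10, a difference of -0.05. With quantile normalization the value of Gphn was 0.001 and that of Gabbr2 0.003.

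All 3 genes that mark a neuron as GABAergic were lower on the cuprizone array on the deposited scale, as were 51.6% of measured genes. Their signs were the same under all 6 scalings tried, the deposited one included, which also held for 10 other GABA genes. Gad1, the decarboxylase that supplies most of the GABA of the cell body, was at 5.86 in the control and 5.56 in the cuprizone sample, a difference of -0.30. Gad2, the decarboxylase of synaptic terminals, was at 7.32 and 7.15, a difference of -0.17. Slc32a1, which loads GABA and glycine into vesicles, was at 6.31 and 6.21, a difference of -0.10. Their median was -0.17. Larger absolute differences were found for 18.8%, 42.0% and 63.1% of measured genes. In bulk tissue, fewer cells of a type and less RNA per cell cannot be told apart.

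The 3 genes lie far apart on chromosome 2. The array annotation places Gad2 from 22622205 to 22693877, Gad1 from 70553072 to 70602014 and Slc32a1 from 158610758 to 158615748. The sequences at their RefSeq starts are shown because these genes had the same sign; they are on the plus strand of GRCm38.p6 at chr2:70561879-70562178, chr2:22622077-22622376 and chr2:158610508-158610807, with CG dinucleotides in capitals.
Gad1: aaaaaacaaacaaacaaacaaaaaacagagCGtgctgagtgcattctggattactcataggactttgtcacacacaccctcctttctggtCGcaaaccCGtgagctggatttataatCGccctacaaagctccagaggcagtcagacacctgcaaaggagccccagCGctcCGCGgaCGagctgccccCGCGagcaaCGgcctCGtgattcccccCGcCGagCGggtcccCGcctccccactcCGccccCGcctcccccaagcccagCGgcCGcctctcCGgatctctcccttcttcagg
Gad2: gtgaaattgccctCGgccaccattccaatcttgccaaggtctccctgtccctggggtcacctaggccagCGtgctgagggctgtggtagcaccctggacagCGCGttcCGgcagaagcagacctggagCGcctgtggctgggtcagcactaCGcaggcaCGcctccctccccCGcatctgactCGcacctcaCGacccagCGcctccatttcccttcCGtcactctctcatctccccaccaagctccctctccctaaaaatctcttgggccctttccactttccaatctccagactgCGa
Slc32a1: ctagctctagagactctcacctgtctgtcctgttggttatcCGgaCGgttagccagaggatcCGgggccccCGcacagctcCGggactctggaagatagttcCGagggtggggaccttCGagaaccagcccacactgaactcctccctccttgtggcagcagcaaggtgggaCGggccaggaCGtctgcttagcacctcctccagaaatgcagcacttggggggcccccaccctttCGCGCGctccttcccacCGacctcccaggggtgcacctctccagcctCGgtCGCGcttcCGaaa
They held 21, 14 and 17 CG dinucleotides, each over the median of 7 for such sequences. GABA genes that were higher had high and low counts too. Gabra2 had 25, Gabrg3 13, Gabra4 12 and Gabra3 0, Gabrb1 had 25 and 9 at its starts, and Slc6a13 from 2 to 11. A link between count and sign was not tested. Fewer were held by 75.2%, 63.7% and 68.6% of all such sequences.

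Markers of GABA neuron subtypes went both ways. Of 24 such genes 16 lay over the background bound on both arrays, against 40.9% of all genes. Of these 16, 6 were lower and 9 higher, against 51.6% and 45.3% of measured genes, with a median of 0.04. In each direction 1 passed 1.2-fold, against 12.3% of measured genes lower and 11.3% higher. Over the 22 measured ones, the set like that of the background shares, 8 were lower and 13 higher, with 2 past 1.2-fold in each direction. Sst, the somatostatin precursor of a main interneuron class, differed by 0.05, and Vip, the marker of another, was at 5.33 and 5.50. The largest values were -0.41 for Lamp5, a marker of neurogliaform cells, and 0.36 for Dlx5, an interneuron transcription factor. Dlx6, its partner, was at 4.77 in the control and within background, at 4.41, in the cuprizone sample. Pvalb, the marker of fast-spiking interneurons and Purkinje cells, was within background on both arrays at 4.19 and 3.71. Of 16 general neuron genes 15 lay over the bound on both arrays, against 40.9% of all genes. Of the 15, 8 were lower and 7 higher, against 51.6% and 45.3% of measured genes, with a median of -0.007. Over all 16, which were measured, the median was 0.03, with 8 lower and 8 higher. The largest value was 0.39 for Rbfox3, a neuronal splicing factor, followed by -0.25 for Nefm and -0.22 for Eno2.

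**Figure D4:**
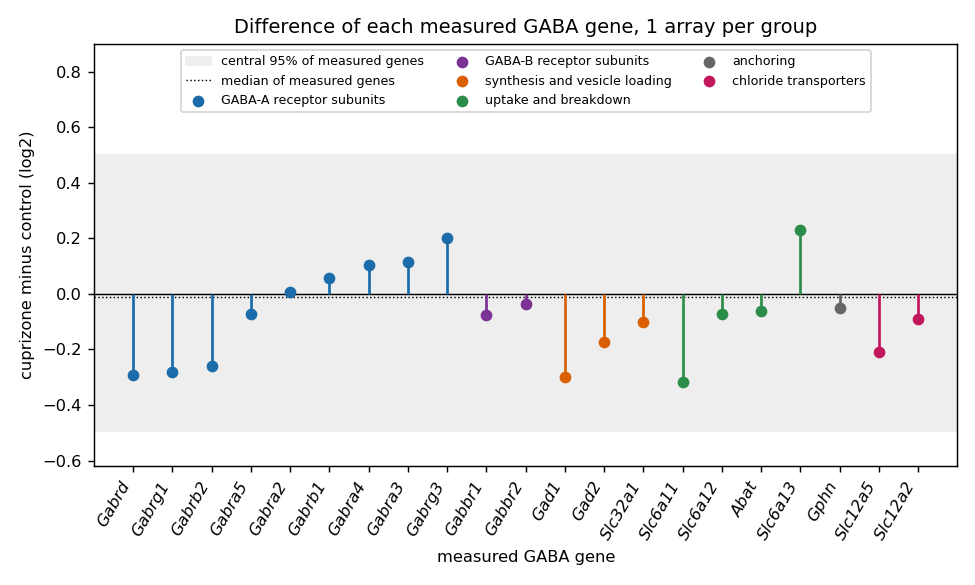
Difference of the cuprizone minus the control array (log2, deposited scale) for each of the 21 measured GABA genes, grouped and coloured by role, with the central 95% of measured genes shaded (-0.49 to 0.50). The lowest value is -0.32 for Slc6a11 and the highest 0.23 for Slc6a13, all 3 genes of synthesis and vesicle loading lie below 0, and the 6 genes above 0 turn negative on either spike-in scale.

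Of the genes that end a GABA signal, the transporter of astrocytes had the largest difference of all GABA genes. Slc6a11, the GABA transporter of astrocytes, was at 9.28 in the control and 8.96 in the cuprizone sample, a difference of -0.32. The annotation places it on chromosome 6 from 114131241 to 114249886. A larger absolute difference was found for 16.8% of measured genes. Abat, the mitochondrial transaminase that breaks GABA down in neurons and glia, was at 8.41 and 8.35, a difference of -0.06.

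Astrocyte markers were present and went both ways. All 11 lay over the background bound on both arrays, against 40.9% of all genes. Their median difference was -0.12. Of the 11, 6 were lower and 5 higher, against 51.6% and 45.3% of measured genes. The log2 of the summed linear level of the 11 was 11.42 in the control and 11.46 in the cuprizone sample. That sum weights genes by the brightness of their probes and includes Gfap, at 7.33 and 8.50. It was not computed without Gfap. Gfap, the filament of reactive astrocytes, differed by 1.17, Slc7a10, a small neutral amino acid transporter, by -0.55 and Fgfr3, a growth factor receptor, by -0.43. Their part in the value of Slc6a11 was not tested.

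Slc6a13, a GABA and taurine transporter known from meninges, had the largest positive difference among the GABA genes. It was at 5.93 in the control and 6.15 in the cuprizone sample, a difference of 0.23. Its neighbour Slc6a12, the betaine and GABA transporter, lies 5.3 kb away and was at 4.84 and 4.76, a difference of -0.07, just over the background bound. The value of Slc6a11 minus that of Slc6a13 was -0.54, a contrast that subtracting a constant from a whole array does not alter. Of 16 genes of meninges and choroid plexus, 13 lay over the bound on both arrays, against 40.9% of all genes. Of 14 measured ones 9 were higher and 5 lower, against 45.3% and 51.6% of measured genes, with a median of 0.10. By 1.2-fold, 4 were higher and 0 lower, against 11.3% and 12.3% of measured genes. The log2 of their summed linear level was 11.03 and 11.27, a sum that weights genes by the brightness of their probes and is led by Ttr; without Ttr it was 10.19 and 10.26. Ttr, the transthyretin of choroid plexus, differed by 0.43, Fmod, a proteoglycan of fibroblasts, by 0.40 and the growth factor gene Igf2 by 0.33, and their part in the value of Slc6a13 was not tested.

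Both chloride transporters were lower on the deposited scale. Slc12a5, the potassium-chloride cotransporter by which mature neurons extrude chloride, was at 7.96 in the control and 7.75 in the cuprizone sample, a difference of -0.21. Slc12a2, the sodium-potassium-chloride cotransporter that brings chloride into cells, was at 7.20 and 7.11, a difference of -0.09. The value of the exporter minus that of the importer was -0.12, and 33.2% and 66.7% of measured genes had a larger absolute difference than each. Slc12a2 is also known from glia and choroid plexus, so its level is not that of neurons alone.

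Other genes of the pathway were read from 4 lists chosen with earlier results of these data known. In none of the 4 did a measured gene differ by 1.5-fold on the deposited scale. For receptor trafficking and anchoring the median of 17 measured members was -0.09. Of the 17, 14 were lower and 3 higher, against 51.6% and 45.3% of all measured genes. By 1.2-fold, 2 of the 17 were lower and 0 higher, against the backgrounds of 12.3% and 11.3%. The largest values were -0.44 for Plcl1, a phospholipase-like protein that binds receptor beta subunits, -0.30 for Gabarapl1, a relative of the receptor-associated protein, and -0.25 for Lhfpl4, which links receptors to neuroligin. Nlgn2, the neuroligin of inhibitory synapses, was at 7.18 and 7.33.

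Partners of GABA-B receptors had a median of 0.07 over 7 measured members, 3 lower and 4 higher, against 51.6% and 45.3% of all measured genes. Kctd12, an auxiliary subunit that speeds desensitisation of the receptor, was at 6.22 in the control and 6.67 in the cuprizone sample, a difference of 0.45, which no GABA gene reached. Another auxiliary subunit gene, Kctd8, was at 4.89 in the control and within background, at 4.46, in the cuprizone sample, so it was lower by at least 0.18 with the background bound in place of the dim value. Kcnj9, a subunit of the potassium channels that the receptor opens, differed by -0.23.

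Genes of GABA and glutamine metabolism had the lowest median of the pathway lists, -0.22 over 14 measured members. Of the 14, 11 were lower and 3 higher, against 51.6% and 45.3% of all measured genes. By 1.2-fold, 5 of the 14 were lower and 0 higher, against the backgrounds of 12.3% and 11.3%. Gls2, a glutaminase, was at 5.68 and 5.32, a difference of -0.36. Glul, the glutamine synthetase of astrocytes that returns transmitter carbon to neurons as glutamine, was at 10.46 and 10.10, also -0.36. Aldh5a1, which oxidises the product of Abat for the tricarboxylic acid cycle, was at 6.77 and 6.43, a difference of -0.34.

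Of 18 chloride handling genes 14 lay over the background bound on both arrays, against 40.9% of all genes. The median of the 14 was -0.07. Of these 14, 9 were lower and 5 higher, against 51.6% and 45.3% of measured genes. By 1.2-fold, 2 of the 14 were lower and 0 higher, against 12.3% and 11.3%. Over the 16 measured ones, the set like that of the background shares, 10 were lower and 6 higher, with 2 and 1 past 1.2-fold. Car2, a carbonic anhydrase that oligodendrocytes also express, was at 7.38 and 6.85, a difference of -0.53, outside the central 95% of measured genes. Cab39, a partner of the kinases that phosphorylate these transporters, differed by -0.27. Wnk4, a kinase upstream of them, was within background on both arrays at 4.10 and 4.44.

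The arrays did differ in the genes that cuprizone is known for. All 11 oligodendrocyte genes were at least 1.5-fold lower, where 1.35% of measured genes were. The median of the 11 was -1.05, with values from -0.64 for Cnp to -1.93 for Mobp, and their summed linear level went from 11.79 to 10.73 on the log2 scale. Of 12 microglia genes 5 were at least 1.5-fold higher, where 1.60% of measured genes were, led by Cd68 at 1.55. The median of the 12 was 0.53. The small differences of the GABA genes thus come from arrays on which myelin transcripts differed widely. Forebrain genes had a median of -0.03 over 15, with the largest value for Prox1 at -0.47, and of the cerebellum genes Car8 was lower by at least 0.20.

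**Figure D5:**
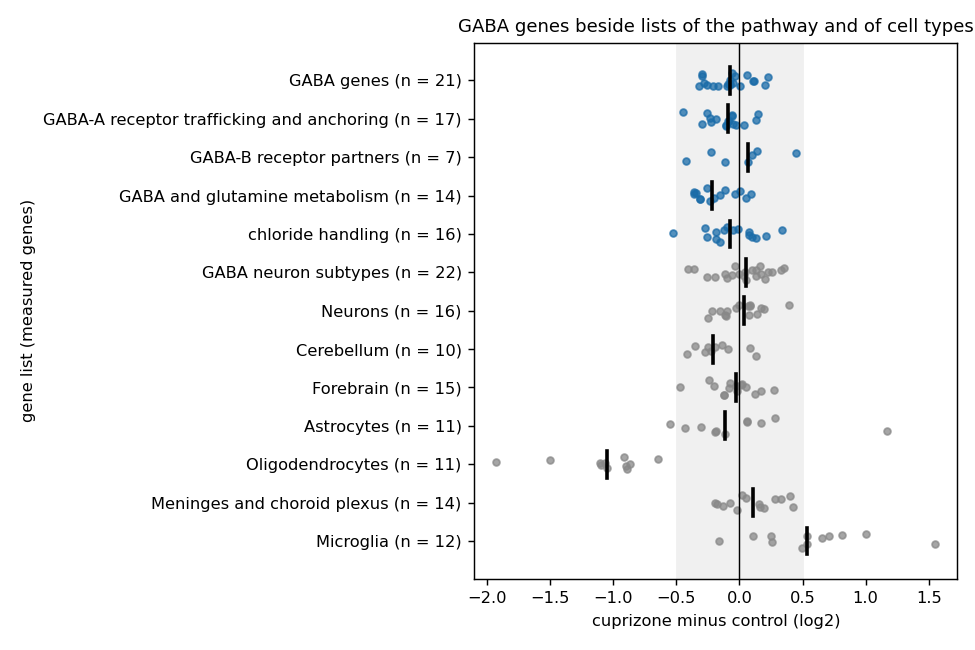
Difference of the cuprizone minus the control array (log2, deposited scale) for the measured genes of the GABA set, of 4 pathway lists (both in blue) and of 8 cell type or region lists (grey), with a black bar at each median and the central 95% of all measured genes shaded. The GABA median is -0.07, the pathway medians run from -0.22 to 0.07, and the oligodendrocyte and microglia medians are -1.05 and 0.53; scaling on spike-ins moves every list down together, by 0.26 or 0.38.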

How the data were processed

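RNA of 2 samples was hybridised to Affymetrix whole-transcript mouse gene arrays. The deposited values are log2 signals summarised for each probe set by RMA, run in Affymetrix Power Tools with no version stated, per the submitters' processing notes. The sources used here give neither the genome build nor the annotation release. RMA equalises the distribution of signals across arrays, so a shift of total RNA would be removed. The authors' annotated table and the series value table share all 41345 probe sets, with values that differ by at most 5e-05.

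Per gene the probe set with the highest mean of both arrays was used. Differences were computed with Python 3.11.15, numpy 2.4.6 and pandas 2.3.3, with no further scaling, and checked on simulated data. With 1 array per group no test was made, and the number of arrays limits the precision. All 26 GABA genes were named whatever their values, as were up to 3 measured genes with the largest absolute difference from each of 12 lists; any other gene was picked with its values in view. Some genes of the lists are not reported here. The members and lists were chosen with earlier results of these data known. Promoter sequences came from RefSeq tables (GRCm38.p6), which held 23 of the 26 genes. For 25 of the 26 the array's coordinates lay within 50 kb of the ends of the gene there. Alternatives were other scalings (array median, quantile, lowess with a span of 0.2, spike-ins), the other table, the mean of probe sets, other level filters, other background bounds and lower fold thresholds, of which 1.2-fold was added after seeing the data, as were list counts over genes above background on both arrays and lists without Gabra6 or Ttr.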

Additional observations from a re-analysis of the deposited data

How the results depend on the processing

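No paired analysis was possible because each group had 1 array. A value counted as moved when it shifted by more than 0.25, the SD of differences over measured genes, and a count when it changed by over 1.5 times. That limit is the spread of single genes and is wide for a median, so a median that stayed within it says little about stability. Spike-in scaling and the 1.2-fold threshold went past these limits. At 1.2-fold, chosen after seeing the data, 4 GABA genes in place of 0 were lower. At the lower threshold planned beforehand, which lay between 1.2-fold and 1.5-fold, 0 GABA genes were lower and 0 higher, as at 1.5-fold. The following values are for scaling on hybridization spike-ins, then on poly-A spike-ins. The GABA median became -0.34 and -0.45, and with the latter 6 GABA genes, in place of 0, were at least 1.5-fold lower. Role medians became -0.26 and -0.37 for GABA-A receptor subunits, -0.32 and -0.43 for GABA-B receptor subunits, -0.43 and -0.55 for synthesis and vesicle loading, -0.33 and -0.44 for uptake and breakdown, -0.31 and -0.43 for anchoring, and -0.41 and -0.53 for chloride transporters. List medians became -0.35 and -0.46 for receptor trafficking, -0.20 and -0.31 for GABA-B partners, -0.48 and -0.59 for GABA and glutamine metabolism, -0.33 and -0.45 for chloride handling, -0.21 and -0.33 for GABA neuron subtypes, -0.23 and -0.34 for neurons, -0.47 and -0.58 for cerebellum, -0.29 and -0.41 for forebrain, -0.38 and -0.49 for astrocytes, -1.31 and -1.43 for oligodendrocytes, -0.16 and -0.27 for meninges and choroid plexus, and 0.27 and 0.16 for microglia. These scalings subtract a constant from every gene, so they leave differences between genes as they were. The other 120 values of counts, medians and detection stayed within the limits. Among them, the number of GABA genes that were lower was 16 with array medians, 13 with quantile normalization and 15 with lowess. With either spike-in scaling it went from 15 to all 21, which the limit of 1.5 times does not count as moved. The median of GABA-A receptor subunits was -0.02 with array medians and -0.05 with no level filter, and that of cerebellum genes was -0.14 over the 4 above background on both arrays, a subset taken after seeing the data. What separates the spike-in controls of the arrays was not tested.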

Other observations

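Some genes had exactly the same deposited value on both arrays. This was so for 509 of 16559 measured genes, or 3.07%, and for 1689 of all 30920 genes, or 5.46%, although RMA values carry 5 decimals. It was so for 0 of the 26 GABA genes. Among genes of the lists used here, Htr3a, a serotonin receptor subunit of interneurons, was at 4.87 on both arrays, over the background bound. The median number of probes was 23 for the identical measured genes and 23 for all measured genes.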
